A study of Homo sapiens with 16 samples.

Results

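The genes described here are the immediate early and AP-1 transcription factors: FOS, FOSB, FOSL1 and FOSL2 of the FOS family, JUN, JUNB and JUND of the JUN family, and EGR1, MYC and IER2. They were chosen by name, and all 10 were found among the 18332 Ensembl gene IDs of the deposited expression table. RNA was sequenced from MDA-MB-231, here the first line, and MDA-MB-468, the second, both established human breast cancer cell lines obtained from ATCC and labelled ER negative. Each line was cultured for 48 hours with low (5 mM, the control) or high (25 mM, the hyperglycemia condition) glucose, with 4 replicates in each of the 4 groups and 16 samples in all. Per the study's methods, cells were first conditioned in low-glucose medium, and both glucose media contained no serum. Routine growth before the experiment was in DMEM for MDA-MB-231 and in RPMI for MDA-MB-468, so line and routine medium cannot be told apart. The methods do not state for each line the base of the glucose media. The replicates were cultures in flasks, and nothing in the labels separates them by passage or day, so p-values measure the spread between these cultures, which may be technical.

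Immediate early genes are transcribed within minutes of a growth factor, stress or serum signal, without new protein synthesis, and most encode transcription factors. FOS and JUN proteins pair through leucine zippers to form AP-1, which binds the TPA response element or the cAMP response element in its target genes, and FOSL1 is known as a factor of mesenchymal-like breast cancer cells. EGR1 is a zinc finger factor induced through serum response factor, MYC is a basic helix-loop-helix factor that drives growth and ribosome production, and IER2 is a nuclear protein induced by growth factors. The values here are levels after 48 hours in serum-free medium, and no earlier time was analysed.

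Values are normalized reads, that is, reads scaled by one size factor per library. The libraries held between 14094597 and 24425916 recovered reads. The 2 lines were recognizable by markers: VIM stood at 96228 ± 2742 normalized reads (SD, n = 4) in low-glucose MDA-MB-231 and at 21.5 ± 5.48 in low-glucose MDA-MB-468, whereas KRT5 stood at 1.13 ± 0.827 and 15150 ± 545. SPARC and CD44 did not follow the list for MDA-MB-231, since SPARC lay at or below a mean of 7.84 in all 4 groups and CD44 was the more abundant in MDA-MB-468. ESR1, the estrogen receptor gene, reached a mean of at most 57.9, and of the markers of other cell types PTPRC reached a mean of at most 12.46 and CDH5 of at most 0.593.

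Upstream sequence was taken from RefSeq (GRCh38.p14) as windows of 300 bases, 250 before and 50 after each gene's start, and 8 of the 10 members had an entry. FOSL1 and MYC had none. All 8 windows held the half-site of the cAMP response element, TGACG, on either strand, which 24.6% of 35116 promoters in the same table also held. The CArG box, the letters bound by serum response factor, was found only in EGR1 among the 8 (1.29% of all promoters), and it occurred there 2 times, starting 105 and 83 bases before the start. The TPA response element, TGANTCA, was found only in FOSL2 (7.71%) and the complete cAMP response element, TGACGTCA, which contains the half-site, only in JUND (1.85%). TATAAA was found in FOS, FOSB and JUNB (11.5%), GGGCGG in 6 members (45% of all promoters), and the E-box CACGTG in 0 of the 8 (7.26%). A match is a description of the letters in this window and not evidence of binding. Bases outside the windows were not searched, so a motif not found in a member may lie farther away. The windows of EGR1 (chr5:138465229-138465528, plus strand), FOSL2 (chr2:28392608-28392907, plus strand), JUNB (chr19:12791236-12791535, plus strand) and IER2 (chr19:13150161-13150460, plus strand) are shown because these members responded to glucose in 1 or both lines. That of FOS (chr14:75278578-75278877, plus strand) is shown as the family's first member. Capitals mark the CArG box, the half-site on either strand, TGANTCA and TATAAA.
EGR1: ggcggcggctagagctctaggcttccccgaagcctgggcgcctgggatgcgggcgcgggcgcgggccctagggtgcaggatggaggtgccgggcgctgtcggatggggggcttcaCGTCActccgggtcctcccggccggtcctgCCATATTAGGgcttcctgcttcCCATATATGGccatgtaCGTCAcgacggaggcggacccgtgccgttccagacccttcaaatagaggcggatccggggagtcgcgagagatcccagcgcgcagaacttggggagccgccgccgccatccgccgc
FOSL2: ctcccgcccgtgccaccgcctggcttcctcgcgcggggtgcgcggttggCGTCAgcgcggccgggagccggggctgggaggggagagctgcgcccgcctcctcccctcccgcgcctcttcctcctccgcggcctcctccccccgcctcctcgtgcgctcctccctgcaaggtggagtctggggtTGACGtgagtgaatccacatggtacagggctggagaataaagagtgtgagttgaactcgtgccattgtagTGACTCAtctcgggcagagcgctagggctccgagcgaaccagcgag
JUNB: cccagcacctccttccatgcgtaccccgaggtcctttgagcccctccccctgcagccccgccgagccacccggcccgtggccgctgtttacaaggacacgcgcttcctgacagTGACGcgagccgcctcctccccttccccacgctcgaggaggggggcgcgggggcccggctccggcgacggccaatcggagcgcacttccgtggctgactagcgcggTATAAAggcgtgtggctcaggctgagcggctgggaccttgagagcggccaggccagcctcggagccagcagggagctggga
IER2: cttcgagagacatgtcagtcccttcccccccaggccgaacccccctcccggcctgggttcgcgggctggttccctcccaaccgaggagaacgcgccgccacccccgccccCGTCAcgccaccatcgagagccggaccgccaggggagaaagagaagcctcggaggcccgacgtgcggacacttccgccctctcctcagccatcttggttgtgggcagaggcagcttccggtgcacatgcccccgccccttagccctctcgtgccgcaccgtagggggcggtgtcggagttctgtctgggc
FOS: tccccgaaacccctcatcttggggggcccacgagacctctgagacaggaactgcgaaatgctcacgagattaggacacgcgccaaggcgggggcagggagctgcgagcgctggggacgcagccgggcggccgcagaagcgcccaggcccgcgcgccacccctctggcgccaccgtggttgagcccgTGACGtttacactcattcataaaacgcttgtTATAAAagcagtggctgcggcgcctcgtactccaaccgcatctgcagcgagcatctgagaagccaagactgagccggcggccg

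The members occupied a wide range of levels, and the lines differed most in FOSL1. Per kilobase of transcript, which allows genes to be compared, FOSL1 was the highest member in low-glucose MDA-MB-231 with 4316 ± 125 normalized reads per kilobase (SD, n = 4), above 98.4% of 14289 genes. IER2 (1439 ± 18.7), JUND (1303 ± 58.0) and MYC (1104 ± 12.8) followed, then JUNB (708 ± 38.9) and JUN (660 ± 18.2), whose samples overlapped. Below them lay FOSL2 (357 ± 16.7), EGR1 (134 ± 10.3), FOS (51.8 ± 3.43) and FOSB (19.1 ± 1.96). The order of the 10 was the same in high glucose, where JUNB and JUN did not overlap.

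In low-glucose MDA-MB-468, IER2 was highest with 761 ± 22.0 normalized reads per kilobase, followed by JUND (631 ± 26.97), MYC (482 ± 12.3), JUNB (437 ± 8.27), FOSL2 (345 ± 12.504) and JUN (265 ± 14.3). EGR1 (98.3 ± 7.82) again stood between these and the lowest members, which were FOSL1 (30.7 ± 9.34), FOS (20.1 ± 2.52) and FOSB (11.2 ± 1.82). High glucose kept this order too, but MYC then overlapped JUNB, and FOSL1 overlapped FOS.

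**Figure D1:**
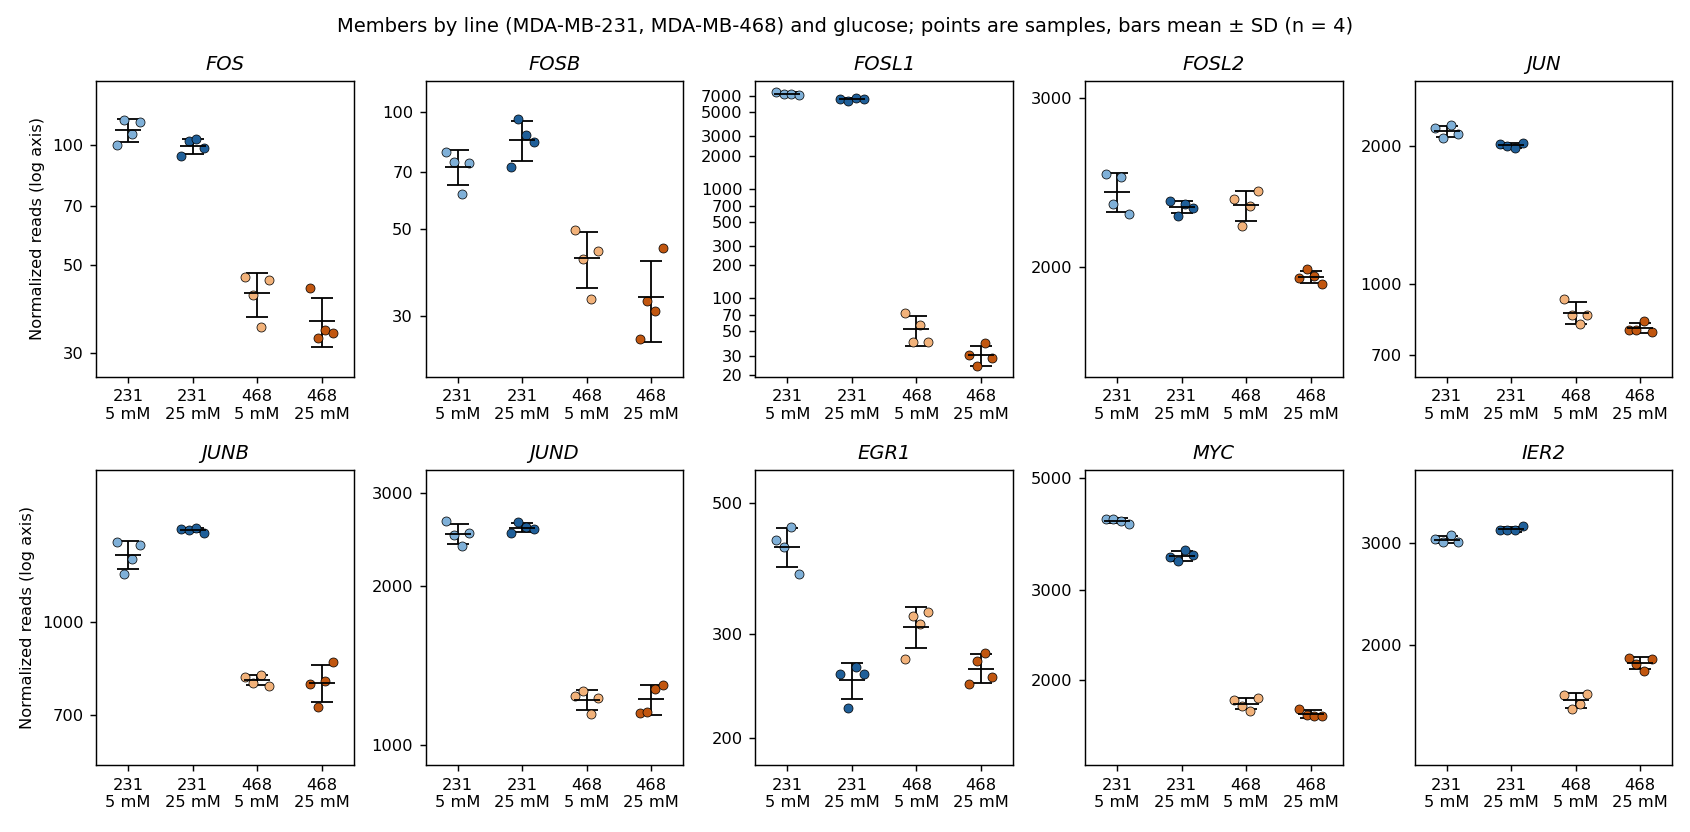
Normalized reads of each of the 10 members (log axis, a separate range for each gene) in the 4 groups, where points are samples and bars are the mean ± SD of 4. FOSL1 separates the lines most (142-fold in low glucose), EGR1 falls with high glucose most in MDA-MB-231, and FOSL2 is the member with the most similar levels in low glucose.

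FOSL1, or Fra-1, a FOS protein without the strong activation domain of FOS, had the largest line difference and fell with glucose in both lines. In low-glucose MDA-MB-231 its 4 samples held 7661, 7276, 7259 and 7189 normalized reads, and in high glucose 6601, 6317, 6710 and 6513. No high-glucose sample reached the lowest control. The decrease of 11.03% passed the limma test (log2 fold change -0.17, SE 0.03, adjusted p = 0.000892).

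In MDA-MB-468, FOSL1 held 72.8, 39.8, 56.9 and 39.5 normalized reads in low glucose and 30.1, 24.03, 38.9 and 28.7 in high glucose. The highest of the high-glucose samples lay just under the lowest control, and the low-glucose samples spread widely around their mean of 52.2 ± 15.9. These values rest on 22 to 92 recovered reads per library. The log2 fold change was -0.73 (SE 0.22, 95% interval -1.19 to -0.27, limma adjusted p = 0.0105). The difference between the lines' decreases, -0.57 (SE 0.22), had a limma adjusted p of 0.0629. It also did not pass in 21 of 29 alternative settings, with adjusted p up to 0.124. It passed the threshold in DESeq2 (adjusted p = 0.000571) and edgeR (0.0108), and in limma without low-glucose MDA-MB-468 replicate 2 (-0.68, adjusted p = 0.0253) or 4 (-0.68, 0.0244) or high-glucose MDA-MB-468 replicate 3 (-0.69, 0.0216).

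FOSL2, or Fra-2, the other FOS protein without that domain, responded in MDA-MB-468. Its low-glucose samples there held 2356, 2204, 2312 and 2400.0 normalized reads, and its high-glucose samples 1946, 1988, 1958 and 1920.2. The groups were clearly apart, and the decrease of 15.7% passed the limma test (log2 fold change -0.25, SE 0.03, adjusted p = 1.78e-05). In MDA-MB-231 the low-glucose samples held 2499, 2327, 2479 and 2271 and the high-glucose samples 2341, 2261, 2323 and 2304, so the groups overlapped. The log2 fold change there was -0.05 (95% interval -0.13 to 0.03, limma adjusted p = 0.396), and the responses differed between lines (interaction -0.19, SE 0.05, limma adjusted p = 0.00396).

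FOS, the prototype of the family, was scarce in both lines and did not pass the test in either. Its samples held 100.04, 115, 106 and 114 normalized reads in low-glucose MDA-MB-231 and 93.4, 102, 103 and 98.0 in high glucose, with overlapping groups. In MDA-MB-468 they held 46.7, 42.0, 35.0 and 45.8 in low glucose and 43.7, 32.8, 34.3 and 33.7 in high glucose, again overlapping. The log2 fold changes were -0.13 (95% interval -0.34 to 0.08, limma adjusted p = 0.429) and -0.22 (-0.59 to 0.14, 0.307). The second interval is wide, since each MDA-MB-468 library held 30 to 59 reads of FOS.

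FOSB, the closest relative of FOS, was per kilobase the lowest member in every group. It held 78.6, 74.4, 61.5 and 74.0 normalized reads in low-glucose MDA-MB-231 and 72.0, 95.7, 87.3 and 83.7 in high glucose. In MDA-MB-468 it held 49.8, 42.0, 33.3 and 44.01 in low glucose and 26.2, 32.8, 30.9 and 44.7 in high glucose. Groups overlapped in both lines, with log2 fold changes of 0.23 (SE 0.13, limma adjusted p = 0.270) and -0.33 (SE 0.20, limma adjusted p = 0.181). The interaction was -0.56 (SE 0.23, limma adjusted p = 0.0758). It passed the threshold without low-glucose MDA-MB-468 replicate 3 (-0.67, adjusted p = 0.0355) or without high-glucose MDA-MB-468 replicate 4 (-0.70, adjusted p = 0.0190). In the other 27 of 29 alternative settings it did not pass.

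The make-up of the FOS family differed between the lines. FOSL1 made up 91.0% ± 0.177 of the family's level per kilobase in low-glucose MDA-MB-231 and 7.49% ± 2.02 in low-glucose MDA-MB-468, where FOSL2 made up 84.8% ± 2.05. Summed over its 4 genes, the family stood at 4744 ± 135 normalized reads per kilobase in low-glucose MDA-MB-231 and 407 ± 19.4 in low-glucose MDA-MB-468. High glucose brought these sums to 4253 ± 100.4 and 335 ± 3.43, with no overlap between glucose groups in either line.

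**Figure D2:**
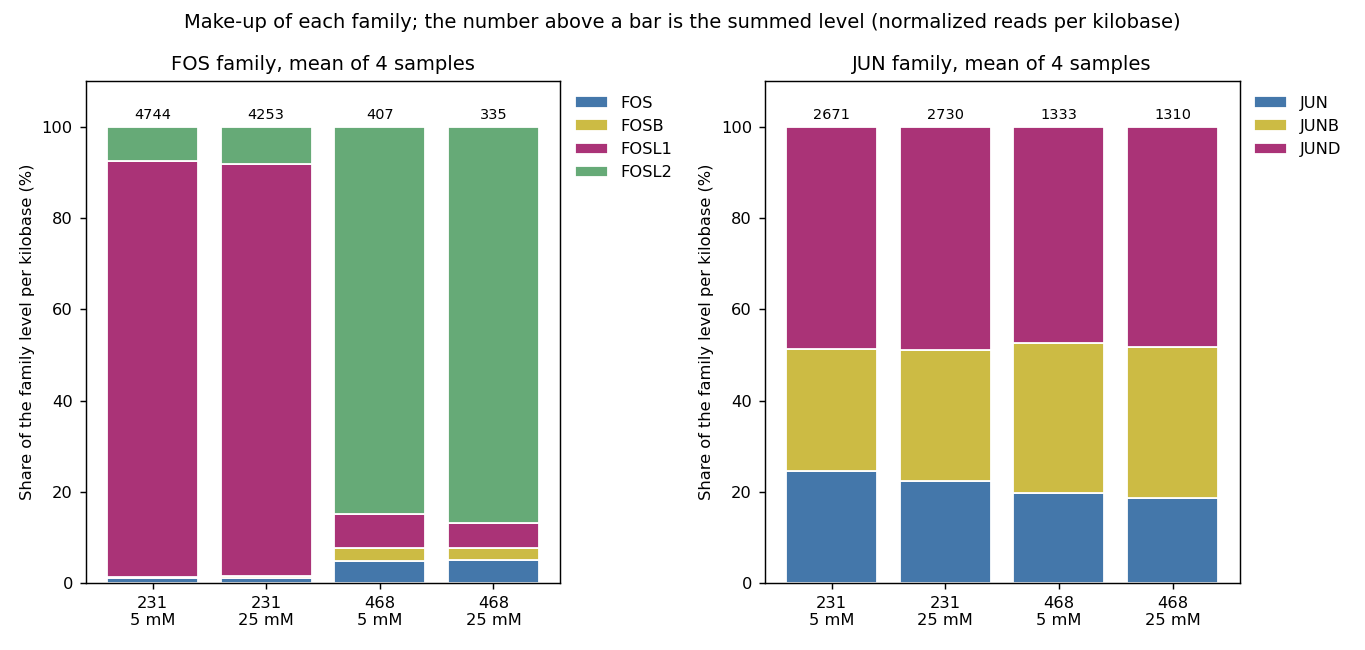
Share of each gene in the summed level per kilobase of its family (percent, mean of 4 samples) for the FOS and JUN families in the 4 groups, with the summed level in normalized reads per kilobase above each bar. FOSL1 fills most of the FOS bar in MDA-MB-231 and FOSL2 most of it in MDA-MB-468, while JUND takes the largest share of the JUN bar in each group.

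The proteins of the JUN family can pair with each other and with FOS proteins. In limma without corrections the family had 1 glucose response past the threshold, that of JUNB in MDA-MB-231. JUND made up 48.8% ± 1.14 of the family's level per kilobase in low-glucose MDA-MB-231 and 47.3% ± 1.14 in low-glucose MDA-MB-468. JUN took 24.7% ± 0.902 and 19.9% ± 0.665, and JUNB 26.5% ± 0.790 and 32.8% ± 1.20. The family's sum was 2671 ± 90.4 normalized reads per kilobase in low-glucose MDA-MB-231 and 1333 ± 33.8 in low-glucose MDA-MB-468.

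JUN, the strongest activator of the family, held 2182, 2080.4, 2212 and 2121 normalized reads in low-glucose MDA-MB-231 and 2017, 1991, 1976 and 2029 in high glucose. All high-glucose samples lay below all controls, but the log2 fold change of -0.10 (SE 0.03) had a limma adjusted p of 0.0514. It passed the threshold in 5 of 21 alternative settings, among them GC correction (-0.11, limma adjusted p = 0.00631) and without low-glucose MDA-MB-231 replicate 2 (-0.12, 0.0480) or 4 (-0.11, 0.0318). In the other 16 it did not pass, with adjusted p up to 0.166. In MDA-MB-468 the samples held 927, 853, 815 and 856 in low glucose and 792, 792, 829 and 783 in high glucose. Replicate 3 of each group made these overlap, and the log2 fold change of -0.11 (SE 0.05) had a limma adjusted p of 0.0619. With GC correction it was -0.18 (limma adjusted p = 0.00262). Without low-glucose MDA-MB-468 replicate 3 it was -0.14 (adjusted p = 0.0347), and edgeR gave -0.12 (adjusted p = 0.0408). It passed in 6 of 21 alternative settings and did not in 15.

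JUNB, which can restrain JUN, was the member of the family past the threshold in MDA-MB-231. It held 1361, 1206, 1274 and 1344 normalized reads there in low glucose and 1429, 1427, 1438 and 1411 in high glucose, with no overlap and a tight high-glucose group. The increase of 10.2% (log2 fold change 0.14, SE 0.04) had a limma adjusted p of 0.0316. This call was lost when any of 6 libraries was left out: low-glucose MDA-MB-231 replicate 2 (0.11, adjusted p = 0.111) or 3 (0.13, 0.0709), or high-glucose MDA-MB-231 replicate 1 (0.14, 0.0726), 2 (0.14, 0.0701), 3 (0.14, 0.0780) or 4 (0.14, 0.0570). A correction for transcript length gave 0.12 (limma adjusted p = 0.0781), and GC correction gave 0.13 (0.0562).

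In MDA-MB-468, JUNB held 810, 792, 817 and 784 normalized reads in low glucose and 789, 721, 799 and 857 in high glucose. The high-glucose samples surrounded the controls, and the log2 fold change was -0.02 (95% interval -0.13 to 0.09, limma adjusted p = 0.786), which became 0.03 without high-glucose MDA-MB-468 replicate 2. With GC correction it was -0.12 (limma adjusted p = 0.0251). The interaction of -0.16 (SE 0.06) had a limma adjusted p of 0.0758. It was -0.20 (adjusted p = 0.0201) without high-glucose MDA-MB-468 replicate 4, and it passed in 3 of 29 alternative settings.

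JUND, the most constitutive JUN gene, held between 2383 and 2655 normalized reads in low-glucose MDA-MB-231 and between 2521 and 2640.1 in high glucose. In MDA-MB-468 the ranges were 1143 to 1264 and 1148 to 1298. The groups overlapped in both lines, with log2 fold changes of 0.04 (95% interval -0.04 to 0.11, limma adjusted p = 0.567) and 0.0013 (-0.10 to 0.10, 0.986). With GC correction the MDA-MB-468 value was -0.12 and passed (limma adjusted p = 0.0224).

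EGR1 had the largest decrease of the 10 in MDA-MB-231. Its low-glucose samples there held 433, 421, 455 and 378 normalized reads and its high-glucose samples 257, 225, 264 and 257. The highest treated sample stood far below the lowest control. The level decreased by a factor of 1.68 (log2 fold change -0.75, SE 0.07, 95% interval -0.90 to -0.60, limma adjusted p = 1.31e-06). In a bulk culture, fewer cells expressing a gene and less RNA per cell cannot be told apart.

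In MDA-MB-468, EGR1 held 273, 322, 312 and 327 normalized reads in low glucose and 247, 269.8, 279 and 254 in high glucose. Here low-glucose replicate 1 fell within the range of the treated samples. The log2 fold change of -0.23 (SE 0.07) passed the limma test (adjusted p = 0.0155), but not without low-glucose MDA-MB-468 replicate 4 (-0.20, adjusted p = 0.0529). The decrease was larger in MDA-MB-231, with an interaction of 0.52 (SE 0.10, limma adjusted p = 0.00103).

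MYC also fell in MDA-MB-231, from 4146, 4144, 4101 and 4045 normalized reads in low glucose to 3487, 3421, 3604 and 3515 in high glucose. The gap between the groups was wider than the range of either, and the decrease of 14.7% passed the limma test (log2 fold change -0.23, SE 0.03, adjusted p = 3.46e-05). In MDA-MB-468 it held 1827, 1777, 1738 and 1837 in low glucose and 1753, 1703, 1695 and 1698 in high glucose. One high-glucose sample, replicate 1, reached into the control range, and the log2 fold change was -0.07 (95% interval -0.14 to 0.0033, limma adjusted p = 0.109). The responses differed between lines (interaction 0.16, SE 0.03, limma adjusted p = 0.00162), although after quantile normalization the difference was 0.10 (adjusted p = 0.0570).

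IER2 moved in the other direction in MDA-MB-468. Its samples there held 1639, 1553, 1582 and 1651 normalized reads in low glucose and 1903, 1853, 1805 and 1895 in high glucose. With no overlap, the increase of 16.04% passed the limma test (log2 fold change 0.21, SE 0.04, adjusted p = 9.32e-05). In MDA-MB-231 the low-glucose samples held 3045, 3003, 3088 and 3007 and the high-glucose samples 3147, 3147, 3146 and 3201, again without overlap but 4.10% apart (log2 fold change 0.06, SE 0.03, limma adjusted p = 0.216). The increase was larger in MDA-MB-468 (interaction 0.16, SE 0.04, limma adjusted p = 0.00264).

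**Figure D3:**
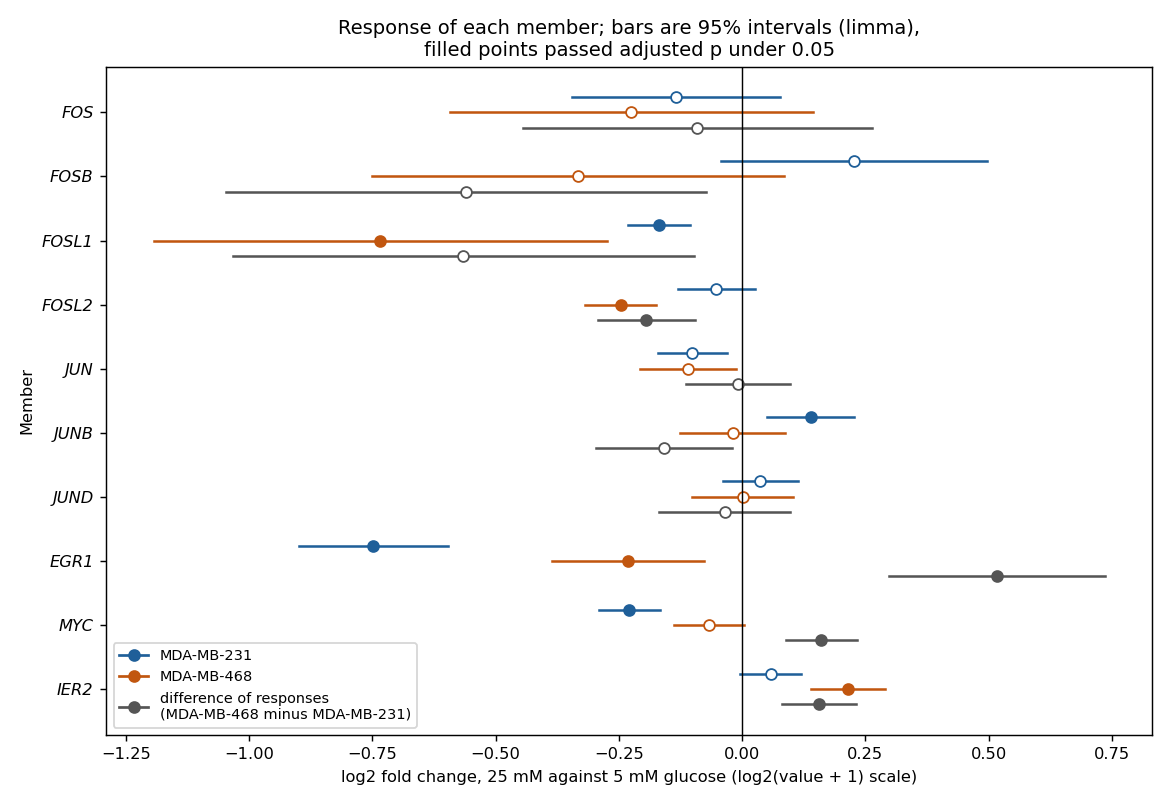
Log2 fold change of each of the 10 members from 5 mM to 25 mM glucose (x axis, log2(value + 1) scale) in each line, and the difference of both responses, with 95% limma intervals. Filled points passed an adjusted p under 0.05, and EGR1 in MDA-MB-231 (-0.75) and FOSL1 in MDA-MB-468 (-0.73) lie farthest from 0.

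Counted over the 10 members, 1 rose (JUNB) and 3 fell (FOSL1, EGR1 and MYC) in MDA-MB-231, where limma called 5.71% of the 14884 genes tested higher and 9.37% lower. In MDA-MB-468, 1 rose (IER2) and 3 fell (FOSL1, FOSL2 and EGR1), against 24.9% higher and 22.7% lower of 15757 genes. After a correction for GC content the MDA-MB-468 count became 8 members, 7 of them lower, beside 7505 of 15079 genes called in either direction. The members' transcripts had GC contents between 48.8% and 69.9%, against a median of 48.8% over all genes tested. Glucose groups did not overlap for 6 members in MDA-MB-231, against 18.7% of all genes, and for 3 members in MDA-MB-468, against 42.5%. The members' median log2 fold change was -0.17 in MDA-MB-468, where that of all genes tested was 0.00011, and -0.08 in MDA-MB-231, where it was 0.0017. For the difference of responses, 3 members passed as higher (EGR1, MYC and IER2) and 1 as lower (FOSL2), against 17.0% and 13.9% of 17115 genes.

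Between lines, most members were lower in MDA-MB-468 at either glucose level. In low glucose 9 members were lower and 0 higher, against 40.4% and 45.0% of the 17115 genes tested by limma. At an unadjusted p under 0.05, in edgeR and in DESeq2, 0 members were higher in either glucose condition. The exception was FOSL2, with a log2 difference of -0.05 (SE 0.03, limma adjusted p = 0.198). It passed as lower in edgeR (-0.08, adjusted p = 0.0441), where all 10 members were thus lower, and in limma with TMM factors (-0.08, adjusted p = 0.0429), with GC correction (-0.09, adjusted p = 0.00705) and without low-glucose MDA-MB-231 replicate 4 (-0.07, adjusted p = 0.0473). After quantile normalization it passed as higher (0.10, limma adjusted p = 0.00805). In high glucose 9 members were again lower and 0 higher, against 40.6% and 44.6%, and EGR1 was then the one that did not pass (0.07, SE 0.07, limma adjusted p = 0.398).

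The sizes of these line differences ranged widely. FOSL1 was 142-fold lower in MDA-MB-468 in low glucose (log2 difference -7.15, SE 0.16) and 211-fold lower in high glucose (-7.72, SE 0.16). FOS was lower by a factor of 2.55 in low glucose, JUN by 2.49, MYC by 2.29, JUND by 2.06, IER2 by 1.89, FOSB by 1.70, JUNB by 1.62 and EGR1 by 1.37. Since the controls of a line enter both kinds of comparison, these values and the glucose responses are not independent.

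Genes connected with the members were counted from lists named for their roles. All their glucose counts stand beside the limma shares over all genes tested. These were 5.71% higher and 9.37% lower in MDA-MB-231, and 24.9% and 22.7% in MDA-MB-468. Of the other immediate early genes, 31 were tested in MDA-MB-231, of which 4 rose and 11 fell (median log2 fold change -0.07), and 28 in MDA-MB-468, of which 5 rose and 10 fell (-0.07). In MDA-MB-231, DUSP1, a MAP kinase phosphatase, fell from 401 ± 34.6 to 267 ± 10.2 normalized reads (SD, n = 4 in each group), HBEGF, an EGF receptor ligand, from 926 ± 35.9 to 629.8 ± 36.8, and CCN2, a matricellular growth factor, from 9069 ± 146 to 6244 ± 110. KLF4, a zinc finger factor, rose from 1764 ± 72.5 to 2085 ± 9.44, as did IER5L (log2 fold change 0.28) and ZFP36, which binds AU-rich elements (0.21). KLF4 (-0.47) and ZFP36 (-0.22) passed as lower in MDA-MB-468 by limma, where IER5L did not pass (-0.07).

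In MDA-MB-468 the largest falls of that list were in PPP1R15A, which relieves the stress block on translation (912 ± 23.2 to 519 ± 11.8 normalized reads), CCN2 (1087 ± 20.2 to 698 ± 33.6) and CCN1 (1595 ± 30.1 to 1112 ± 57.1). The largest rises were in BTG2, an antiproliferative gene (89.4 ± 9.82 to 156 ± 11.03), RHOB, a small GTPase (336 ± 12.8 to 457 ± 38.8), and SGK1, a kinase (436 ± 11.7 to 589 ± 26.7). CCN1 (log2 fold change -0.51) and SGK1 (-0.36) passed as lower in MDA-MB-231 by limma. EGR2 and EGR3, the relatives of EGR1, were too low for a test in MDA-MB-468. In MDA-MB-231 they had log2 fold changes of 0.05 and -0.49 that did not pass in limma (adjusted p = 0.959 and 0.156).

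Upstream of the members, none of the 8 serum response factor, ELK and MRTF regulators rose in MDA-MB-231 and 3 fell by limma, with 0 rises also at an unadjusted p under 0.05, in edgeR and in DESeq2. Those that fell were ETS1 (log2 fold change -0.16), SRF (-0.15) and ELK3 (-0.12), all transcription factors. In MDA-MB-468, 2 rose (ELK3 0.21 and ELK1 0.13) and 3 fell (ELK4 -0.22, ETS1 -0.20 and MRTFB -0.16), and DESeq2 called 0 of the rises. Of the 27 MAP kinases and their kinases, 3 rose and 1 fell in MDA-MB-231, and 7 rose and 5 fell in MDA-MB-468. MAPK13, a p38 kinase, rose in both lines (0.35 and 0.36), MAP2K1, which activates ERK, fell in MDA-MB-231 (-0.16), and MAPK9, a JUN N-terminal kinase, fell in MDA-MB-468 from 3210 ± 146 to 2155 ± 24.2 normalized reads. MAPK12, another p38 kinase, also rose in both lines (0.23 and 0.31), as did MAP2K5, which activates ERK5, in MDA-MB-231 (0.25) and RPS6KA4, or MSK2, in MDA-MB-468 (0.43). RPS6KA3, or RSK2 (-0.24), and the RAS gene NRAS (-0.20) fell in MDA-MB-468.

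**Figure D4:**
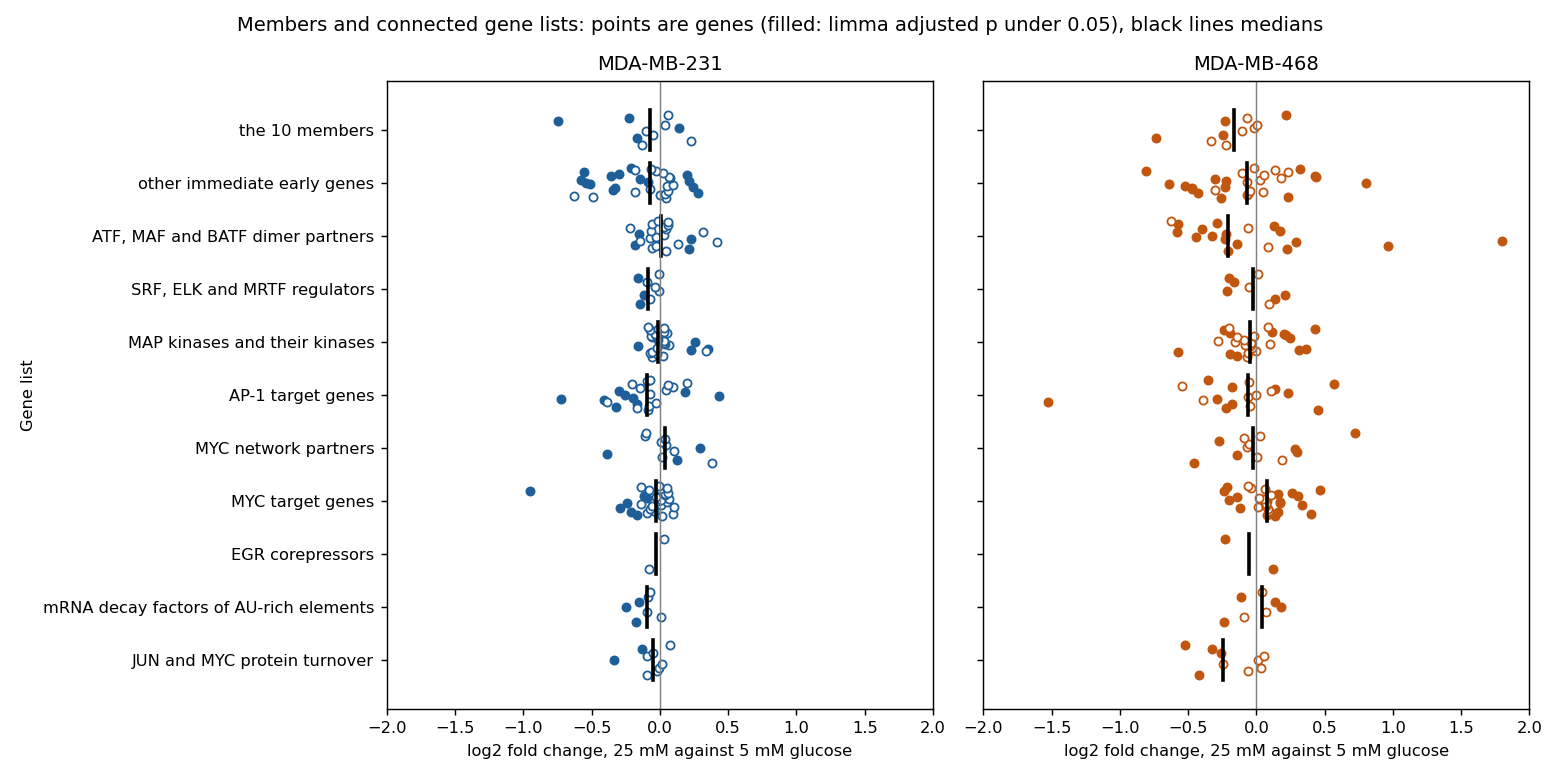
Log2 fold change from 5 mM to 25 mM glucose (x axis) of the 10 members and of the genes of 10 connected lists, with a panel for each line, where points are genes, filled points passed an adjusted p under 0.05 in limma, and black lines are medians. The MYC target genes lie around 0 in MDA-MB-231 (median -0.03) and mostly above it in MDA-MB-468 (median 0.08).

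The list of ATF, MAF and BATF genes had 2 rises and 2 falls of 22 genes in MDA-MB-231. In MDA-MB-468 it had 6 rises and 10 falls of 19 genes. Proteins of some of these genes, but not of all, can pair with JUN or FOS proteins. ATF4, a stress factor, rose in both lines, in MDA-MB-231 from 6828 ± 211 to 7894 ± 72.5 normalized reads and in MDA-MB-468 from 13343 ± 243 to 15608 ± 443. ATF6, a sensor of the unfolded protein response, rose by a factor of 1.95 in the second line, MDA-MB-468 (log2 fold change 0.97, SE 0.05), whereas NRL (-0.58) and NFE2L3 (-0.57) fell there. BATF rose in that line as well (0.29). In MDA-MB-231, JDP2, a repressor that pairs with JUN proteins, rose (0.23), and ATF7 (-0.18) and MAFK (-0.16) fell. JDP2 (-0.23), ATF7 (-0.14) and MAFK (-0.22) passed as lower in MDA-MB-468 by limma, so JDP2 moved in opposite directions.

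Of the AP-1 target genes, 2 rose and 7 fell of 23 in MDA-MB-231 (median log2 fold change -0.09), and 4 rose and 6 fell of 17 in MDA-MB-468 (-0.06). CXCL8, a neutrophil chemokine, fell in both lines, in MDA-MB-231 from 220.0 ± 20.4 to 165 ± 13.4 normalized reads and in MDA-MB-468 from 61.4 ± 9.03 to 20.8 ± 4.24. PLAU, the urokinase gene, fell in MDA-MB-231 (-0.32) and rose in MDA-MB-468 (0.45). IL11, a cytokine, fell in MDA-MB-231 from 453 ± 16.9 to 275 ± 21.0, and HMOX1, heme oxygenase, rose there (0.43). CCND1, cyclin D1, fell in MDA-MB-468 (-0.29) and in MDA-MB-231 (-0.20) by limma. In MDA-MB-468, the cytokine gene TGFB1 (0.56) and the metalloproteinase inhibitor TIMP1 (0.23) rose, and PHLDA1 fell (-0.35). Between lines in low glucose, 22 of the 23 AP-1 target genes tested were lower in MDA-MB-468 and 1 was higher by limma, beside 40.4% and 45.0% of all genes.

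Of the 29 MYC target genes, 0 rose and 7 fell in MDA-MB-231 by limma, while 2 were higher at an unadjusted p under 0.05, 0 in edgeR and 1 in DESeq2. In MDA-MB-468, 13 rose and 5 fell. The difference of responses passed as higher for 16 of the 29 and as lower for 1, beside 17.0% and 13.9% of all genes. TFRC, the transferrin receptor, fell in MDA-MB-231 from 4226 ± 235 to 2185 ± 89.7 normalized reads and in MDA-MB-468 from 7089 ± 94.3 to 6005 ± 118. ODC1, ornithine decarboxylase, rose in MDA-MB-468 from 1074 ± 28.5 to 1416 ± 25.2, and its value in MDA-MB-231 was 0.10 on the log2 scale (limma adjusted p = 0.0872). LDHA, lactate dehydrogenase, fell in MDA-MB-231 (-0.29), and MRTO4 (0.46) and SRM (0.33), of ribosome and polyamine synthesis, rose in MDA-MB-468. Genes of ribosome production also fell, namely BOP1 in MDA-MB-231 (-0.24), and UTP20 (-0.21) and POLR1B (-0.20), a subunit of RNA polymerase I, in MDA-MB-468. BOP1 rose in MDA-MB-468 (0.17, limma adjusted p = 0.0439), and LDHA fell there too (-0.12, limma adjusted p = 0.00388). Of the MYC network partners, MAX rose in MDA-MB-231 (0.12), and so did MXI1 (0.29), a repressor that pairs with it, while MXD3 fell there (-0.39) and rose in MDA-MB-468 (0.30). MXD4 rose in MDA-MB-468 too (0.28), and MYCN (-0.46), MGA (-0.27) and MXD1 (-0.14) fell.

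The lists that act on the members' RNA or protein were small. Of 7 decay factors of AU-rich elements, 0 rose (also 0 at an unadjusted p under 0.05, in edgeR and in DESeq2) and 3 fell in MDA-MB-231 by limma (HNRNPD -0.25, ZFP36L1 -0.17 and KHSRP -0.16), whereas HNRNPD (0.18) and KHSRP (0.13) rose in MDA-MB-468 and ZFP36L1 (-0.23) and TIA1 (-0.11) fell. Of 9 genes of JUN and MYC protein turnover, 0 rose and 2 fell in MDA-MB-231 (SKP2 -0.34 and HUWE1 -0.13), and 0 rose and 4 fell in MDA-MB-468. The 0 rises held in both lines at an unadjusted p under 0.05, in edgeR and in DESeq2. FBXW7, the ubiquitin ligase subunit that recognizes JUN and MYC proteins, was among the genes that fell in MDA-MB-468, with 390 ± 29.2 normalized reads in low and 290 ± 17.3 in high glucose, as were TRIB2 (-0.53) and HUWE1 (-0.33). The EGR corepressors NAB1 (0.12) and NAB2 (-0.23) passed in limma in MDA-MB-468 but not in DESeq2, and their log2 fold changes in MDA-MB-231 were -0.08 and 0.03.

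On GRCh37 (hg19), EGR1 lies at chr5:137801168-137804992 with 2 exons, FOS at chr14:75745529-75748933 with 4 and FOSL1 at chr11:65659520-65668044 with 4. JUN (chr1:59242517-59249720), JUNB (chr19:12902300-12904129) and JUND (chr19:18390504-18392432) have 1 exon each, as have 6.53% of all genes tested, for which the median is 8 exons. IER2 lies at chr19:13261225-13265725 with 2 exons, FOSB at chr19:45971253-45978437 with 4 and FOSL2 at chr2:28615315-28640184 with 4. The AUUUA pentamer, the core of AU-rich decay elements, occurred 9 times in the 3′ UTR of FOSL2, 6 times in MYC, 5 in FOS, 3 in FOSB and JUN, 2 in JUNB, 1 in FOSL1, JUND and EGR1, and 0 times in IER2. Thus 5 of the 10 held 3 or more, as did 46.1% of 13875 genes with a 3′ UTR. These counts grow with the length of the 3′ UTR, which is 4869 bases in FOSL2 and 806 in FOS.

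Deviations from the group means showed little common movement of the members. Over the 16 samples, Pearson's r between members had a median of 0.10 over 45 pairs, of which 28 were above 0. It was highest for FOSB and JUND (0.76) and for FOS and MYC (0.65), and lowest for FOS and EGR1 (-0.43). These points share library and depth, and FOS and FOSB carry the counting error of few reads.

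Likeness to other genes was measured as Pearson's r over the 16 samples after centring on each line, among 10616 genes, so that it holds the glucose response too. EGR1 was most like MKI67, the proliferation marker (r = 0.96), which fell in both lines (log2 fold change -0.62 and -0.18), and CMIP (0.96). MYC was most like LAMB1 (0.95), a laminin, and HJURP (0.95), a centromere factor, both lower in high-glucose MDA-MB-231 (-0.28 and -0.55). JUN was most like MAFK (0.88) and PIM1 (0.86), FOSL1 like HLA-C (0.90) and CLIP2 (0.87), and FOS like DENND6A (0.83) and KLHL15 (0.81). FOSL1 and FOS rest on few reads in MDA-MB-468, and CLIP2 passed in neither line by limma.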

How the data were processed

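RNA of 16 samples was sequenced. Per the study's methods, reads were trimmed with Trimmomatic and aligned to hg19 with TopHat and an Ensembl annotation; the submitters' processing notes name hg38 and edgeR instead. The counting program and its use of strand are not given in the sources used here. The deposited values are a signal per gene that the authors made by scaling read counts with one size factor per library. Whole multiples of 1 step, within 0.1 read, made up 100% of the values of each library, so whole reads were recovered. Symbols were found for 17647 of 18332 IDs, and transcript lengths, exons and 3′ UTRs for 17418 or fewer, from the canonical transcripts of GENCODE on GRCh37. The members and gene lists were chosen with earlier results of these data known.

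The filter kept genes that reached 0.5 CPM in at least 2 samples of a fit, which were tested with limma 3.58.1 (lmFit, eBayes with trend, two-sided) (R 4.3.3) after the transform log2(value + 1), and the contrast was high against low glucose within a line. A model of 4 group means gave the difference of responses (MDA-MB-468 minus MDA-MB-231) and the line comparisons. Fold changes are on the log2(value + 1) scale, which understates changes of low genes. P-values were Benjamini-Hochberg adjusted over all genes tested, with a threshold of 0.05. From each list other than the cell markers, up to 3 rises and 3 falls per line with at least 50 normalized reads in the higher group were named. Added after their values were seen were EGR2, EGR3, the corepressors' values in MDA-MB-231, ODC1 there, and values of some named genes in the other line. Some genes that this rule names are not reported here. On simulated data with 200 changed genes, 190 were recovered in MDA-MB-231 among 14701 genes, with 12 false calls. The planted changes were larger than every glucose response of the members and lay in genes averaging above 50 normalized reads. Recovery of smaller changes, or of changes in lower genes, was not measured. Alternatives were edgeR 4.0.16 (quasi-likelihood) and DESeq2 1.42.0 on the recovered reads, pseudocounts of 0.5 and 4, other filters, TMM and quantile scaling, length and GC corrections, a replicate block, a threshold of 0.01 and leaving out each library. Same-numbered samples did not deviate together (r between -0.0339 and 0.0313 across genes), so the numbers were not treated as pairs. Replicate pairs differed by more than counting error (chi-square per gene 2.04 to 5.56).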

Additional observations from a re-analysis of the deposited data

Results flagged for a closer look

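In 40 sets of 4 samples (10 members in 4 groups), 3 held a sample far from the other 3 by Dixon's criterion, which chance gives in about 1 of 20 sets. They were FOS in high-glucose MDA-MB-468 (replicate 1 at 43.7 normalized reads, the others between 32.8 and 34.3), MYC in the same group (replicate 1 at 1753, the others between 1695 and 1703) and IER2 in high-glucose MDA-MB-231 (replicate 4 at 3201, the others between 3146 and 3147). For FOS and MYC it was the same library.

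The response to high glucose differed between lines by limma's interaction test for 4 members: EGR1 (0.52, adjusted p = 0.00103), MYC (0.16, adjusted p = 0.00162), IER2 (0.16, adjusted p = 0.00264) and FOSL2 (-0.19, adjusted p = 0.00396). EGR1 fell in both lines, MYC passed in MDA-MB-231, and IER2 and FOSL2 passed in MDA-MB-468.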

How the results depend on the processing

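Of 1290 values, 50 results of members under their alternatives, 1228 kept direction and side of the threshold, 15 lost the threshold, 31 gained it and 16 turned direction; for 34 of the 50 results all alternatives kept both. The 4 members called in MDA-MB-231 were 1 higher and 3 lower. The higher count became 2 with quantile normalization and 0 with the replicate block, length correction, GC correction, the block with length correction, or an adjusted p under 0.01. Leaving out a library gave 0 to 1 higher, 3 to 4 lower and 3 to 5 in all. In MDA-MB-468, where 4 were called (3 lower), GC correction gave 8 (7 lower) and an adjusted p under 0.01 gave 2 (1 lower); without a library 3 to 5 were called, 2 to 4 lower. For the difference of responses the lower count of 1 became 2 with quantile normalization, the replicate block, the block with length correction, edgeR and DESeq2, 3 with GC correction, and 1 to 3 without a library. For MDA-MB-468 against MDA-MB-231 in low glucose the higher count of 0 became 1 with quantile normalization. The cause was not tested.

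Direction turned for JUND in MDA-MB-468, whose log2 fold change of 0.0013 became -0.0031 with TMM, -0.012 with quantile normalization, -0.052 with length correction, with or without the replicate block, -0.12 with GC correction, -4.84e-05 in edgeR, -0.0033 in DESeq2, and lay between -0.029 and 0.030 when a library was left out, below 0 without low-glucose MDA-MB-468 replicate 3 or high-glucose MDA-MB-468 replicate 3 or 4. JUNB there lay between -0.058 and 0.025 when a library was left out, above 0 without high-glucose MDA-MB-468 replicate 2. With a library left out, the interaction of JUN lay between -0.035 and 0.027, above 0 without low-glucose MDA-MB-231 replicate 2, low-glucose MDA-MB-468 replicate 1 or high-glucose MDA-MB-468 replicate 4. With quantile normalization FOSL2 in low glucose became 0.10 and EGR1 in high glucose -0.0068 for MDA-MB-468 against MDA-MB-231. The replicate block changed no call of a glucose response other than JUNB, and added FOSL1 to the interaction. FOS, FOSB and FOSL1 in MDA-MB-468 rest on few reads, and detection at their depth was not measured.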
